A study of Mus musculus with 8 samples.

Results

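The circadian clock genes of the heart were followed across WT and TKO mice as a check of whether the libraries resemble each other in time of day. The set was chosen by name, as clock genes and clock output genes of opposite phases (*Clock*, *Npas2*, *Per1*, *Per2*, *Per3*, *Cry1*, *Nr1d1*, *Nr1d2*, *Dbp*, and *Tef*), and all 10 were found among the 16994 genes measured. All 10 passed the filter on low counts (at least 1 CPM, counts scaled to a fixed library total, on average over the libraries), as did 12999 genes in all. RNA was sequenced from 4 regions of the heart in each of 2 genotypes, as 1 library per genotype and region, so no difference between a pair of libraries has a replicate check.

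TKO mice carry a whole-body deletion of *Tigar*, the gene of a fructose bisphosphatase that restrains glycolysis and WT mice were the controls. All animals were male. The infarct zone, border zone, and remote zone came from hearts in which the left anterior descending coronary artery had been ligated at 16 weeks of age, with the tissue taken 4 weeks later. The left ventricle libraries are labelled as left ventricle with no zone and are taken here as tissue without an infarct. Whether those mice had a sham operation is not given in the sources used here. Each infarct zone library pooled RNA from 3 mice, and the number behind each of the other libraries is not stated. Mice were kept under equal periods of light and dark. The clock time of tissue collection, and whether the zones of 1 genotype came from the same hearts, are not given in the sources used here.

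The mammalian clock is a feedback loop in which CLOCK or its relative NPAS2 pairs with BMAL1 (encoded by *Arntl*) and turns on the Per, Cry, Nr1d, *Dbp*, and *Tef* genes through E-box elements. PER and CRY proteins then repress that pair, while the NR1D receptors (REV-ERBs) repress *Arntl* and *Npas2*, so that the activators and their targets peak at opposite times of day. In rodent heart the activators *Arntl*, *Npas2*, and *Clock* peak around the end of the night, *Nr1d1* peaks in the middle of the light phase, *Dbp* and *Tef* follow, the Per genes come toward evening, and *Cry1* comes later in the night. A change in time of day can therefore move the activators (here the positive arm, *Clock* and *Npas2*) and the daytime and evening genes (here the evening arm, *Nr1d1*, *Nr1d2*, *Dbp*, *Tef*, *Per1*, *Per2*, and *Per3*) in opposite directions. The genes of the evening arm peak at different times, so a change in time need not move them all together. *Cry1* is given by itself.

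Since most of these genes moved together in 1 library, the elements through which the clock acts were looked for in their promoters, in the 250 bases before each start in the RefSeq table of build GRCm38.p6, which held 9 of the 10 genes (*Per2* was not among them). Stretches of 4 promoters follow, 5′ to 3′ on the strand of the gene, with the matches in capitals: an E-box for *Per1*, 2 D-boxes for *Per3*, an E′-box and an E-box for *Cry1*, and an E′-box for *Nr1d1*. They lie at chr11:69098753-69098818 on the plus strand (*Per1*), chr4:151044786-151044900 on the minus strand (*Per3*), chr10:85185079-85185163 on the minus strand (*Cry1*), and chr11:98775378-98775435 on the minus strand (*Nr1d1*).
Per1: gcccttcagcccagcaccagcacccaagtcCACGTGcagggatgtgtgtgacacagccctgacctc
Per3: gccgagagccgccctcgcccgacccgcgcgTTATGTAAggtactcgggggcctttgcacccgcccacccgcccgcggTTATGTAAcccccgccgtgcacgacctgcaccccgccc
Cry1: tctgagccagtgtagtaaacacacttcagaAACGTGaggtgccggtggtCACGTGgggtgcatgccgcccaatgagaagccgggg
Nr1d1: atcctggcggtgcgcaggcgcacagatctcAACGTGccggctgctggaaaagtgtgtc
In the GENCODE annotation of GRCm38 the *Per1* stretch lies in an intron of a longer transcript of the gene, and the other 3 lie upstream of their genes.

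The letters searched, on both strands, were CACGTG for the E-box, CACGTT for the E′-box, TTATGTAA or TTACGTAA for the D-box, and ANTAGGTCA or ANTGGGTCA for the element bound by the REV-ERB and ROR receptors. Of 32851 promoters in the table, 6.02% held the E-box, 3.85% the E′-box, 0.932% the D-box, and 1.21% the receptor element. Both promoters of *Tef* also held the E-box. No promoter of *Clock*, *Npas2*, *Nr1d2*, or *Dbp* held any of these letters in this window, and the receptor element was found in no member.

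The depth was similar in all libraries, with 27429240 to 33799249 estimated counts each. *Tigar*, the deleted gene, had 25.2 to 71.9 CPM in the 4 WT libraries and 1.97 to 2.89 CPM in the 4 TKO libraries, so the genotypes did not overlap. Levels are given as CPM after TMM scaling, edgeR's correction of library size, whose factors were 1.54 and 1.26 in the WT and TKO infarct zones and 0.866 to 0.956 elsewhere. Values in the infarct zone therefore depend on the scaling more than the others. Markers of cardiomyocytes were present in every library and lower in the infarct zone, where their summed level was 5239 CPM in WT and 11480 in TKO, against 17477 to 24918 in the other 6 libraries. The left ventricle libraries had cardiomyocyte sums of 24918 CPM in WT and 23524 in TKO and fibroblast sums of 754 and 859. Single markers differed more between them, with *Myh6* at 8921 CPM in WT and 5944 in TKO left ventricle, *Tnnt2* at 4383 and 5036, and the adipocyte markers *Adipoq* and *Cidec* at 13.5 and 14.2 in WT and 0.232 each in TKO. In such bulk tissue, fewer cells of a type and less RNA per cell cannot be told apart.

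The activators differed from each other. *Npas2* (ENSMUSG00000026077), which pairs with BMAL1 in place of CLOCK, had 1.93, 1.63, 1.66, and 1.81 CPM in the WT left ventricle, infarct, border, and remote zones. In TKO hearts *Npas2* had 6.53 CPM in the left ventricle and 1.31, 1.58, and 2.23 CPM in the 3 zones. The TKO left ventricle stood above all the others, which spanned 1.66-fold among themselves, and its 169 counts compared with 47 to 69 in the other 7 libraries. Its TKO over WT ratio there was 3.37 (95% interval, 2.46 to 4.69). This and the intervals that follow are exact binomial intervals on the counts of both libraries and cover counting error only. The *Npas2* ratio in the infarct, border, and remote zones was 0.806, 0.957, and 1.23, and all 3 intervals held 1.

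*Clock* (ENSMUSG00000029238), the usual partner of BMAL1, did not set that library apart. *Clock* had 11.1, 7.16, 14.7, and 13.9 CPM in the WT left ventricle, infarct, border, and remote zones, and 12.7, 8.67, 12.5, and 14.6 CPM in the same regions of TKO hearts. Both infarct zones were the lowest on this scale, and the genotypes were interleaved. On total counts the order turned, with the WT left ventricle lowest at 9.63 CPM and the infarct zones at 11.05 in WT and 10.9 in TKO. For *Clock* the left ventricle ratio of 1.15 (0.980 to 1.35) had an interval that held 1, so no difference was detectable. *Arntl*, the gene of BMAL1 itself, is not among the 10. It had 9.81 CPM in the TKO left ventricle and 0.756 to 3.31 in the other 7, a ratio of 3.28 to WT (2.55 to 4.26) in the left ventricle.

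The Period genes encode the repressors that close the loop, and all 3 were low in the TKO left ventricle. *Per2* (ENSMUSG00000055866) had 30.9, 41.6, 36.3, and 32.9 CPM in the WT left ventricle, infarct, border, and remote zones. In TKO hearts it had 6.33 CPM in the left ventricle, and 49.9, 45.0, and 43.5 in the 3 zones. No other library came near the 6.33 CPM of the TKO left ventricle, since the lowest of the other 7 had 30.9. The *Per2* ratio was 0.205 (0.172 to 0.243) in the left ventricle, so WT was 4.88-fold higher. In the infarct, border, and remote zones it was 1.20 (1.12 to 1.28), 1.24 (1.15 to 1.35), and 1.32 (1.22 to 1.44), on the other side of 1.

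*Per1* had 68.5, 97.3, 79.9, and 70.1 CPM in the WT left ventricle, infarct, border, and remote zones, against 24.6, 107.4, 87.4, and 83.8 in TKO hearts. Its left ventricle ratio was 0.359 (0.328 to 0.393), and the 3 zones had ratios from 1.09 to 1.20. *Per3* had 39.5, 64.4, 44.9, and 43.0 CPM in WT hearts and 15.02, 65.1, 48.5, and 50.4 in TKO hearts in the same order. Its left ventricle ratio was 0.380 (0.338 to 0.427), and the zones had ratios from 1.01 to 1.17. For both genes the TKO left ventricle was lowest of the 8 and the infarct zones were highest. Scaled by total counts alone, the infarct zone ratios of *Per1*, *Per2*, and *Per3* fell below 1, to 0.900, 0.978, and 0.826, and their left ventricle ratios became 0.358, 0.205, and 0.379. *Per3* lies within the span of *Camta1* on the same strand.

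*Cry1*, the partner of the PER proteins in repression, had 12.3, 12.7, 13.5, and 13.3 CPM in the WT left ventricle, infarct, border, and remote zones and 8.03, 11.8, 15.6, and 14.9 CPM in TKO hearts. It was again lowest in the left ventricle of TKO hearts, at a ratio of 0.655 (0.548 to 0.781). The other 7 libraries spanned 1.32-fold, less than they did for any Per gene. The zone ratios of *Cry1* lay between 0.932 and 1.16.

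The REV-ERB receptors went apart. *Nr1d2* (REV-ERBβ) had 134.0, 139.9, 134.9, and 132.1 CPM in the WT left ventricle, infarct, border, and remote zones and 79.97, 123.4, 132.0, and 130.6 CPM in TKO hearts, so 7 libraries lay within 1.13-fold (1.85-fold on total counts) and the TKO left ventricle lay below them. Its left ventricle ratio was 0.597 (0.565 to 0.630). *Nr1d1* (REV-ERBα), the earliest of the daytime genes to peak, had 69.8, 141.7, 78.0, and 73.1 CPM in WT hearts and 108.2, 109.7, 66.7, and 66.6 CPM in TKO hearts. It was higher in TKO than in WT left ventricle, by 1.55-fold (1.46 to 1.64), and lower in TKO in the infarct zone, at 0.774 (0.743 to 0.806), the border zone, at 0.855, and the remote zone, at 0.912. For *Nr1d1* the TKO left ventricle was inside the range of the other libraries, but the infarct zones set the top of that range. Outside the infarct zones the other libraries lay between 66.6 and 78.0 CPM. The gene overlaps *Thra* on the opposite strand by 1075 bases, and whether the counting used strand is not given in the sources used here. *Thra* had a left ventricle ratio of 1.28 (1.20 to 1.36).

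*Dbp* and *Tef* encode PAR bZIP transcription factors, which carry the rhythm to genes with D-boxes. *Dbp* had 115.2, 139.3, 131.2, and 151.9 CPM in the WT left ventricle, infarct, border, and remote zones, against 61.8, 138.5, 124.0, and 139.1 CPM in TKO hearts, a left ventricle ratio of 0.537 (0.505 to 0.570). *Tef* had 221.6, 191.4, 198.1, and 206.2 CPM in WT hearts and 111.4, 214.3, 243.6, and 245.3 CPM in TKO hearts, a left ventricle ratio of 0.502 (0.480 to 0.525). For both genes the lowest library was the TKO left ventricle. In the 3 zones *Dbp* had ratios from 0.916 to 0.994 and *Tef* from 1.12 to 1.23, but on total counts the *Tef* ratio in the infarct zone was 0.913, below 1. *Dbp* overlaps *Sphk2* on the opposite strand by 737 bases, and *Sphk2* had a left ventricle ratio of 1.08 (0.960 to 1.21).

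**Figure D1:**
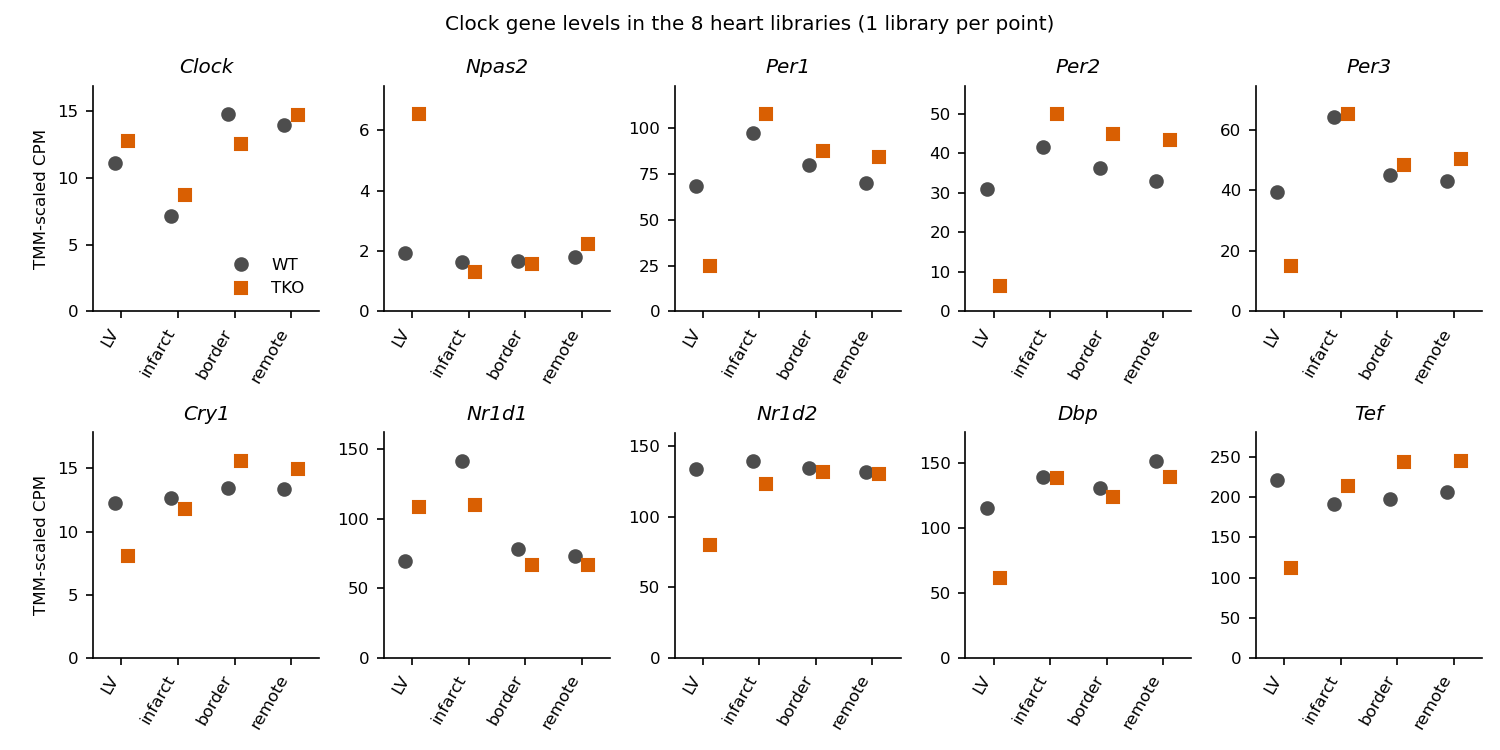
Each panel plots the TMM-scaled CPM of 1 clock gene (vertical axis, from 0) in the 4 heart regions (horizontal axis), with grey circles for WT and orange squares for TKO and each point being 1 library with no replicate. The TKO left ventricle is the highest library for *Npas2* (6.53 CPM) and the lowest for *Per1*, *Per2*, *Per3*, *Cry1*, *Nr1d2*, *Dbp*, and *Tef*, but not for *Clock* or *Nr1d1*.

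Set against each other, the arms separated the TKO left ventricle from the other libraries. The arm difference, the mean log2 CPM of the 7 evening arm genes minus that of *Clock* and *Npas2*, was 4.07, 4.90, 4.10, and 4.04 in the WT left ventricle, infarct, border, and remote zones. In TKO hearts it was 2.09 in the left ventricle and 4.92, 4.32, and 3.98 in the 3 zones. The 7 other libraries thus lay between 3.98 and 4.92, and the TKO left ventricle lay below them by more than their range of 0.937. From WT to TKO left ventricle the evening arm was lower by 1.02 and the positive arm was higher by 0.960 on the log2 scale, so that they moved in opposite directions.

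The arm difference of TKO minus WT was −1.98 (−2.24 to −1.73, counting error only) in the left ventricle. For the infarct, border, and remote zones it was 0.016 (−0.28 to 0.31), 0.22 (−0.08 to 0.53), and −0.058 (−0.33 to 0.22). This mean thus showed no detectable difference in the zones at this depth. It averages genes that went different ways there, so it cannot tell whether single genes differed. In the remote zone, for example, the TKO over WT ratio was 1.32 (1.22 to 1.44) for *Per2* and 0.912 (0.858 to 0.969) for *Nr1d1*. With *Arntl* added to the positive arm, the 4 values of the arm difference were −2.22, 0.26, 0.10, and −0.28 in the same order of regions. The value rests in part on the choice of genes, since in the left ventricle it became −1.22 without *Npas2* and −2.74 without *Clock*. No test was run on it, because the genes of an arm are not replicates.

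**Figure D2:**
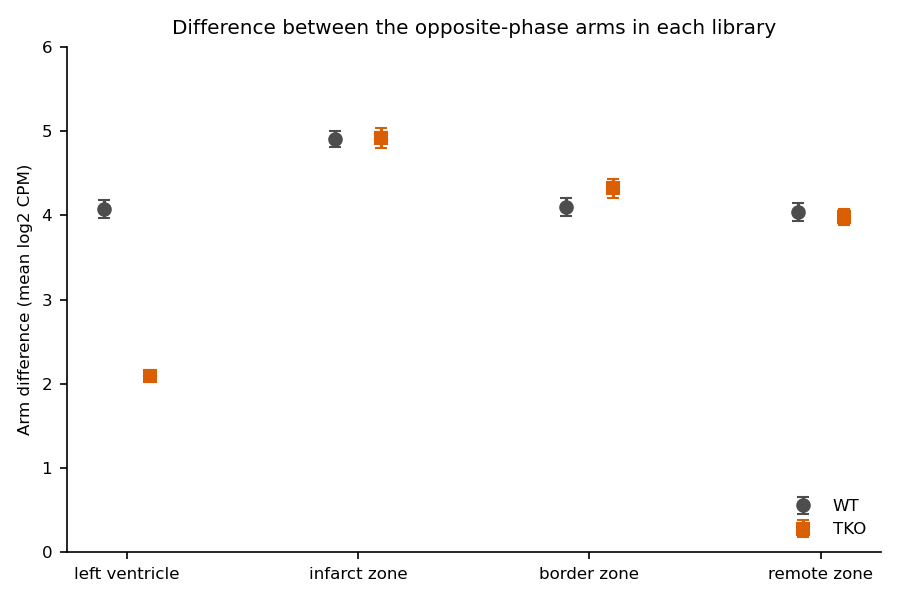
The vertical axis is the mean log2 CPM of the evening arm minus that of the positive arm, by heart region, with grey circles for WT, orange squares for TKO, 1 library per point, and bars of 1 counting standard error. The TKO left ventricle sits at 2.09 and the other 7 libraries between 3.98 and 4.92.

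The TKO left ventricle lay outside the range of the other 7 libraries, by more than that range, for 8 of the 10 clock genes: *Npas2* above it, and *Per1*, *Per2*, *Per3*, *Cry1*, *Nr1d2*, *Dbp*, and *Tef* below it. Of all genes tested, 2.28% did so. On total counts it did so for 4 of the 10 (*Npas2*, *Per1*, *Per2*, and *Tef*) and for 1.45% of all genes. That library was the highest or lowest of the 8 for the same 8 genes on either scale, against 44.2% of all genes, or 39% on total counts.

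In the left ventricle, 1 clock gene was at least 2-fold higher in TKO (*Npas2*) and 3 were at least 2-fold lower (*Per1*, *Per2*, and *Per3*), after a prior count of 2, where 5.6% of all genes differed by that much in either direction. None of the 10 did so in the zones, where the shares of all genes were 3.83% (infarct), 4.49% (border), and 3.56% (remote). Over the 10 genes the median size of the genotype difference, on the log2 scale, was 0.94 for the left ventricle and 0.17, 0.17, and 0.19 for the infarct, border, and remote zones. Over all genes tested the medians were 0.20, 0.24, 0.18, and 0.16.

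**Figure D3:**
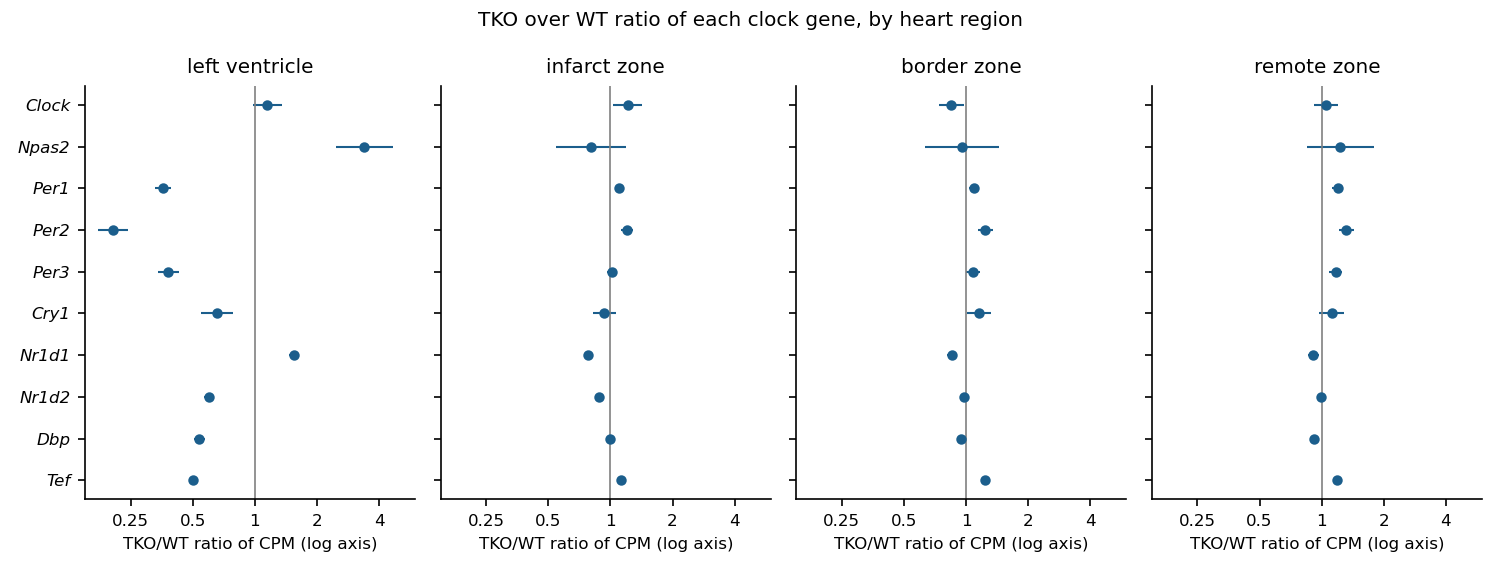
Points are the TKO over WT ratio of each gene (horizontal log axis, with a line at 1) in the 4 heart regions, from 1 library per genotype, and bars are 95% binomial intervals that cover counting error only. In the left ventricle the ratios run from 0.205 for *Per2* to 3.37 for *Npas2*, while in the 3 zones they stay between 0.774 and 1.32.

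An interaction term asked whether the TKO minus WT difference of the left ventricle was unlike that of the 3 zones, and was tested with edgeR's quasi-likelihood test across all 12999 genes, with Benjamini-Hochberg adjustment. The spread in this test is that among regions, so it bears on regions and not on mice, and it rests on 1 TKO and 1 WT left ventricle library. Of the 10 clock genes 3 passed, and all 3 were the Period genes, where 0.646% of all genes passed (84 genes, 29 higher and 55 lower). *Per2* departed by −2.61 on the log2 scale (SE 0.14, adjusted p = 0.0145 by edgeR), which placed it at rank 3 among all genes by p. *Per1* departed by −1.65 (SE 0.15, adjusted p = 0.0319 by edgeR) and *Per3* by −1.51 (SE 0.15, adjusted p = 0.0373 by edgeR).

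The other members did not pass. The departure was 1.77 for *Npas2* (edgeR adjusted p = 0.159), 0.88 for *Nr1d1* (0.0938), −1.23 for *Tef* (0.0618), −0.83 for *Dbp* (0.102), −0.70 for *Cry1* (0.181), −0.67 for *Nr1d2* (0.157), and 0.17 for *Clock* (0.761). Before adjustment, 9 of the 10 had a p under 0.05, as did 16.8% of all genes. The calls turned on single regions. Without the border zone none of the 10 passed, and no gene of any kind did. Without the remote zone only *Per2* did, and without the infarct zone 8 passed. Over all genes the calls in these fits ran from 0 to 1434, against 84 with all regions kept. In each of those fits the departure of *Per2* stayed between −2.64 and −2.57. DESeq2's Wald test called 6 of the 10 (*Per1*, *Per2*, *Per3*, *Tef*, *Dbp*, and *Nr1d1*) and 280 genes in all. On total counts edgeR called 5 of the 10 and 275 genes in all.

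No clock gene passed the test of a genotype difference across all 4 regions, in which 0.138% of genes did (edgeR, Benjamini-Hochberg), and none had an unadjusted p under 0.05. The smallest adjusted p was 0.408, for *Nr1d2* at −0.24 on the log2 scale. With the left ventricle pair left out, the 3 zones gave a difference of 0.32 for *Per2* (SE 0.07), the nearest to the threshold (edgeR adjusted p = 0.0747), and its sign was turned from the −0.22 of all 4 regions. Over the zones *Per1* was at 0.18, *Tef* at 0.24, and *Nr1d1* at −0.24, and none of these passed. The same interaction for the infarct zone was called for 0.00769% of genes by edgeR, a single gene, and for none of the 10, none of which had an unadjusted p under 0.05. DESeq2's Wald test of that interaction called 288 genes and likewise no member.

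Against the left ventricle, most clock genes lay further from a ratio of 1 in the zones of TKO hearts, whose reference was the library that stood apart, than in those of WT hearts. This held for 8 of the 10 in the infarct zone, all but *Clock* and *Nr1d1*, and for 9 in the border and remote zones, all but *Clock*, on both scales, and it was not tested. Every TKO ratio divides by that 1 library, so these counts restate its distance and are not a further result. The share of all genes that did so is not given here. In WT hearts *Per2* was 1.35-fold higher in the infarct zone than in the left ventricle (1.24 to 1.47), 1.17-fold in the border zone, and 1.07-fold in the remote zone. In TKO hearts it was 7.89-fold (6.72 to 9.31), 7.11-fold, and 6.87-fold higher. *Npas2* was at 0.843, 0.856, and 0.935 of the left ventricle in the WT zones, with intervals that all held 1, and at 0.201, 0.243, and 0.341 in the TKO zones. *Tef* was at 0.864 to 0.930 in the WT zones and at 1.92 to 2.20 in the TKO zones, on opposite sides of 1. *Nr1d1* was 2.03-fold higher in the infarct zone of WT hearts (1.93 to 2.14) and 1.01-fold in that of TKO hearts, whose border and remote zones were at 0.617 and 0.616. *Per3* was 1.63-fold higher in the WT infarct zone, and *Clock* was at 0.646 there and at 0.681 in the TKO infarct zone. The infarct zone ratios depended on the scaling. On total counts those of WT hearts were 2.52 for *Per1*, 2.40 for *Per2*, 2.89 for *Per3*, and 3.61 for *Nr1d1*, and *Tef* and *Clock* turned to 1.53 and 1.15, with *Npas2* above 1 as well. In TKO hearts *Per2* was then at 11.4, *Nr1d1* at 1.47, and *Clock* at 0.988.

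**Figure D4:**
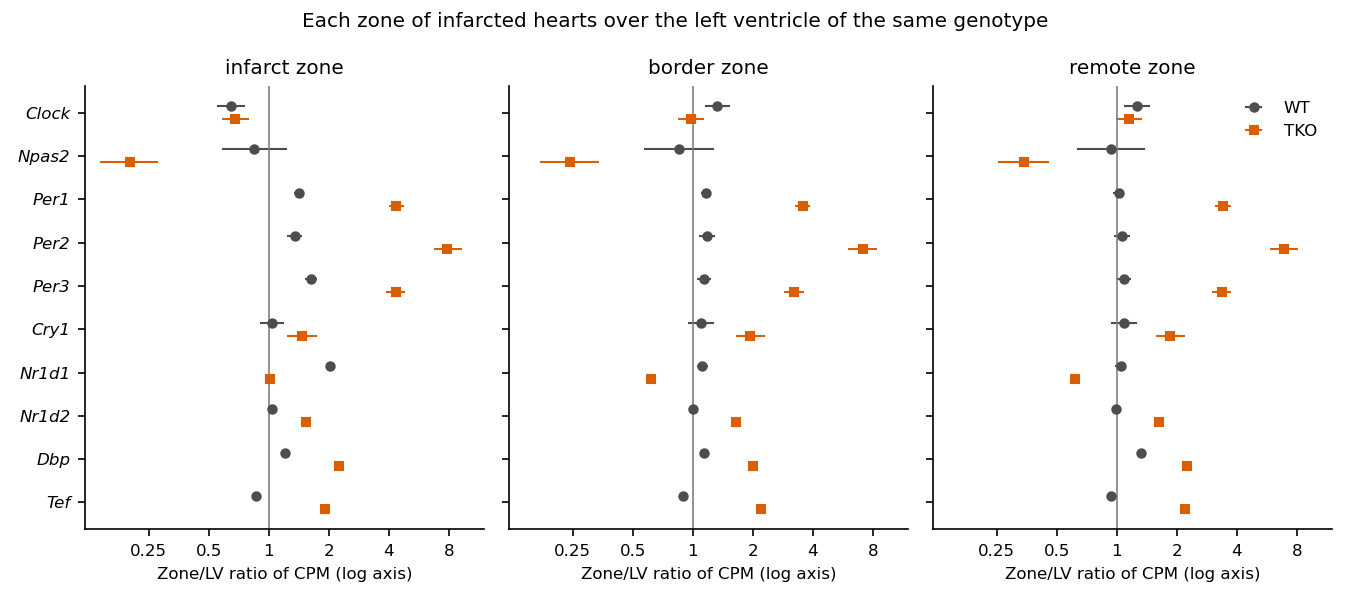
Points are the ratio of each zone of infarcted hearts to its own genotype's left ventricle (horizontal log axis, with a line at 1) for each clock gene, grey circles for WT and orange squares for TKO, 1 library each, with 95% binomial intervals that cover counting error only. WT points run from 0.646 for *Clock* to 2.03 for *Nr1d1*, both in the infarct zone, and TKO points from 0.201 for *Npas2* to 7.89 for *Per2*.

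The mean of the 3 zones was tested against the left ventricle across both genotypes with edgeR's quasi-likelihood test. Of the 10 clock genes 1 passed, where 27.8% of all genes did: *Dbp*, higher by 0.67 on the log2 scale (SE 0.19, adjusted p = 0.0453 by edgeR). Without the TKO left ventricle library none of the 10 passed and *Dbp* was at 0.29 (edgeR adjusted p = 0.116), and leaving out any 1 of the zones also ended its call. Taken in each genotype alone, with no test, the zones were above the left ventricle by 0.25 for *Per2* in WT and by 2.85 in TKO on the log2 scale. For *Per1* the values were 0.25 and 1.91, for *Per3* 0.34 and 1.85, and for *Dbp* 0.29 and 1.11. On total counts 6 of the 10 passed, and with DESeq2's Wald test 4 did. The median of all genes also rose on total counts, from −0.0044 to 0.27. The shares of all genes that passed in these fits are not given here.

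Within infarcted hearts, the infarct zone was compared with the border and remote zones across genotypes, and 2 of the 10 clock genes passed, where 54.2% of all genes did. *Clock* was lower in the infarct zone by 0.82 on the log2 scale (SE 0.13, adjusted p = 0.00347 by edgeR), and *Nr1d1* was higher by 0.82 (SE 0.20, adjusted p = 0.0139 by edgeR). Without both left ventricle libraries, whose spread enters this test, the values of these genes were −0.82 and 0.81. In that fit *Per1* at 0.35, *Per2* at 0.22, and *Per3* at 0.48 passed as well (edgeR adjusted p = 0.00985, 0.0345, and 0.00339). The share of all genes that passed in it is not given here. On total counts the median of all genes shifted from 0.018 to 0.636, and *Clock* was then at −0.21, no longer passing, and *Nr1d1* at 1.45. Cell types moved with these values: the fibroblast markers summed to 6586 CPM in the WT and 5510 in the TKO infarct zone, against 914 to 2506 in the border and remote zones, and the leukocyte markers to 1376 and 1024 against 305 to 504. Their part in the result was not tested.

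The border and remote zones were near each other in both genotypes. In WT hearts the larger of the 2 was at most 1.16-fold above the other for all 10 genes, with *Dbp* the most different. In TKO hearts the same ratio was at most 1.17-fold for 9 genes (*Clock* the highest of them) and 1.39-fold for *Npas2*, at 47 and 67 counts. *Tef* was within 1.01-fold in TKO hearts.

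Of 24 further clock genes and regulators listed by name, 22 were in the table and 21 passed the filter. In the left ventricle departure 2 of the 21 passed, where 0.646% of all genes did. Both were lower: *Ciart*, a repressor of the CLOCK and BMAL1 pair, by −1.66 (adjusted p = 0.0442 by edgeR), and *Wee1*, a cell cycle kinase driven through E-boxes, by −1.64 (adjusted p = 0.0398 by edgeR). *Ciart* had 4.94 CPM in the TKO left ventricle and 12.1 to 17.0 in the other 7 libraries, and *Wee1* had 9.34 CPM there and 23.4 to 32.1 elsewhere. The median departure of the 21 genes was −0.34, beside −0.76 for the 10 members and −0.0052 for all genes.

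Among the core partners that did not pass, *Hlf*, the PAR bZIP relative of *Dbp* and *Tef*, departed by −1.16 (edgeR adjusted p = 0.0618) and had 17.1 CPM in the TKO left ventricle against 29.1 to 41.8 elsewhere. *Arntl* departed by 1.68 (edgeR adjusted p = 0.286), *Cry2* by −0.56 (0.128), *Nfil3*, the repressor that competes at D-boxes, by 0.10 (0.901), and *Rora* by −0.34 (0.344). *Bhlhe40* and *Bhlhe41*, repressors that bind E-boxes, departed by 0.48 (0.331) and 0.48 (0.177). *Nfil3* had 6.17 to 9.997 CPM over all 8 libraries, with the TKO left ventricle at 9.23.

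In the comparison of the zones with the left ventricle, *Arntl* was lower by 1.77 on the log2 scale (adjusted p = 0.0312 by edgeR), while *Bhlhe40* and *Bhlhe41* were higher by 0.57 (0.0358) and 0.53 (0.0273). Within the infarcted hearts *Bhlhe40*, *Bhlhe41*, *Rorb*, and *Arntl2* were higher in the infarct zone, and *Nampt* and *Usp2* were lower.

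Other inputs and outputs of the clock were followed by lists of genes chosen by name, with earlier results of these data known. Of 10 genes known to follow the clock in heart, 3 passed in the left ventricle departure, where 0.646% of all genes did. All 3 were lower: *Herpud1*, a stress protein of the endoplasmic reticulum, by −1.78 (adjusted p = 0.0454 by edgeR), *Pik3r1*, a regulatory subunit of PI3-kinase, by −1.26 (0.0455), and *Adora1*, an adenosine receptor, by −1.26 (0.0455). The departures of all 10 were negative, with a median of −0.84, beside −0.0052 for all genes. Those of the 6 cardiomyocyte markers were all negative as well, with a median of −0.43, and none of them passed. *Kcnip2*, at a departure of −0.83, had 190 CPM in WT and 180 in TKO left ventricle, and 29.3 and 75.6 in the infarct zones. The part of muscle content in these departures was not tested. *Herpud1* had 379.4 CPM in WT left ventricle, 150.3 in TKO left ventricle, and 92.0 to 221.5 in the 6 zone libraries, so for this gene the WT left ventricle was the highest library. The same held for *Adora1*, with 20.7 and 10.3 CPM against 7.85 to 14.5 in the zones. For *Pik3r1* the TKO left ventricle was the lowest library, at 60.9 CPM.

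Glucocorticoids, whose level follows the day, also act on *Per1* and other clock genes. Of 11 target genes of the glucocorticoid receptor, 2 passed in the left ventricle departure, where 0.646% of all genes did. Both were lower: *Fkbp5*, a co-chaperone of the receptor, by −2.74 (adjusted p = 0.0357 by edgeR), and *Tsc22d3* (GILZ) by −1.56 (0.0454). *Fkbp5* had 48.9 CPM in WT and 8.96 in TKO left ventricle, against 29.7 to 90.9 in the zones, and *Tsc22d3* had 120.2 and 49.1 against 97.8 to 248.1. *Pdk4* was at −1.69 (0.0590) and *Zbtb16* at −3.00 (0.0615), and 10 of the 11 departures were negative, with a median of −1.20. *Klf15* and *Cdkn1a* are on this list and on that of genes known to follow the clock in heart, so the lists are not separate. A negative departure did not always mean a low TKO left ventricle. *Pdk4* had 1312 CPM in WT and 420 in TKO left ventricle, against 60.7 to 161.7 in the zones. *Mt1* had 207 and 95.6, against 68.8 to 134.4. For *Zbtb16* and *Klf9* the TKO left ventricle was the lowest library, at 10.9 and 110 CPM. Of 11 immediate early genes, which respond to acute stimuli and to handling of tissue, none passed, with a median of −0.12. *Junb* was at 0.59 (0.133), *Dusp1* at −0.46 (0.207), and *Nr4a1* at −1.20 (0.265), by edgeR. In the zones against the left ventricle 5 of these 11 were higher (*Jun*, *Fosl2*, *Fos*, *Nr4a1*, and *Egr1*) and none lower, where 27.8% of all genes passed in either direction. The part of glucocorticoids in the values of the clock genes was not tested.

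Adipocyte markers moved with the left ventricle pair as well. Of 4 markers, *Adipoq* had 13.5 CPM in WT left ventricle, 0.232 in TKO left ventricle, and 0.565 to 2.58 in the zones, and *Cidec* had 14.2, 0.232, and 1.18 to 3.12. Both passed in the left ventricle departure (adjusted p = 0.0357 and 0.0398 by edgeR). *Plin1* was at 1.24 CPM in the WT left ventricle and at 0 in the other 7 libraries, and *Fabp4*, which endothelial cells also express, had 252.7 to 668.2 CPM. Summed, the 4 were at 697 CPM in WT and 486 in TKO left ventricle, against 258 to 621 in the zones. For *Adipoq* and *Cidec* the WT left ventricle was the highest of the 8 libraries and the TKO left ventricle the lowest. The part of adipocytes in the clock gene values was not tested.

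The genes most like *Dbp* and *Npas2* over the 8 libraries were found by Pearson's r of log2 CPM among genes that averaged 5 CPM or more, as a description over 8 points that share their depth and 1 outlying library. The 5 most like *Dbp* were *9930021J03Rik* (r = 0.967), *Rps7* (0.966), *Klf2* (0.963), *Ggps1* (0.961), and *Adamts1* (0.959). The 5 most opposite to it were *Sgip1* (−0.971), *Tnfaip2* (−0.962), *Rps7-ps3* (−0.952), *Lrrc8d* (−0.951), and *Leo1* (−0.949). For *Npas2* the 5 most alike were *Ephb1* (0.983), *Lrrc8d* (0.969), *Irf2bp1* (0.961), *Dtd2* (0.957), and *Sgip1* (0.957), and the 5 most opposite were *Manea* (−0.984), *Fhip2a* (−0.982), *Per1* (−0.966), *Per2* (−0.960), and *Smg1* (−0.959). On total counts 0 of the 10 genes named for *Dbp* and 1 of the 10 named for *Npas2* remained.

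Among the members, r with *Dbp* was 0.924 for *Per1*, 0.942 for *Per2*, 0.925 for *Per3*, 0.930 for *Nr1d2*, 0.859 for *Tef*, and 0.844 for *Cry1*, while *Clock* was at −0.139 and *Nr1d1* at −0.223. With *Npas2*, 7 of the other 9 had an r between −0.966 and −0.787, and *Clock* and *Nr1d1* were at 0.302 and 0.145. *Rps7* and *Rps7-ps3* are near-identical copies, and how their reads were shared is uncertain. *Rps7* had 29.1 CPM in the TKO left ventricle and 205 to 242 elsewhere, and *Rps7-ps3* had 77.7 CPM there and at most 0.337 elsewhere.

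The mean levels of the opposite arms thus moved in opposite directions between the left ventricle libraries. *Nr1d1*, the earliest of the daytime genes to peak, was higher in the TKO left ventricle, while the other evening arm genes were lower. The difference of *Clock* was not detectable. In the zones the arm difference showed no detectable difference between the genotypes, although single genes differed in both directions. The time of collection, the genotype, the animals, and the preparation and quantification of the TKO left ventricle library cannot be told apart with 1 library. Whether that library was taken at another time of day was not tested.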

How the data were processed

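Reads were trimmed by the authors (Trim Galore 0.6.5), quantified with kallisto 0.46 on the mm10 (GRCm38) transcriptome, and summarized per gene by tximport. Expected counts were deposited as whole numbers, unnormalized, for 16994 genes in 8 libraries of 27429240 to 33799249 counts. The authors' notes also name edgeR 3.34.1. The 10 genes and all gene lists were chosen with earlier results of these data known.

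Here, the 12999 genes averaging 1 CPM or more were tested in R 4.3.3 with edgeR 4.0.16 (TMM scaling, quasi-likelihood test, Benjamini-Hochberg adjustment over all genes tested, threshold 0.05). The genotype difference was fitted with region as a block, its departure in 1 region as an interaction, and zones with genotype as a block. With 1 library per genotype and region, regions stand in for replicates, and p-values measure the spread between regions, which may be technical. Ratios between 2 libraries have exact (Clopper-Pearson) 95% intervals on the counts, for counting error only, and no p. Log2 CPM used a prior count of 2. Genes named were the 10, the core partners and those passing the test, up to 4 per other list by smallest p, and the 5 most and least like *Dbp* and *Npas2*. Some genes that this rule covers are left out of the text.

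Alternatives were total counts, DESeq2 size factors, TMM without mitochondrial DNA-encoded genes, DESeq2 1.42.0 (Wald test), no filter, no region term, and leaving out regions or libraries. The fits were also run on simulated data with independent counts and planted changes. Such data cannot show how well regions stand in for replicate mice. Promoters came from RefSeq, positions from GENCODE. Figures were drawn with matplotlib 3.10.9 in Python 3.11.15, with numpy 2.4.6 and pandas 2.3.3.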

Additional observations from a re-analysis of the deposited data

Results flagged for a closer look

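*Per1*, *Per2*, *Per3*, *Ciart*, and *Wee1* are listed because edgeR's quasi-likelihood interaction test called their TKO minus WT difference in the left ventricle unlike that of the other 3 regions. The departures on the log2 scale were −1.65 for *Per1*, −2.61 for *Per2*, −1.51 for *Per3*, −1.66 for *Ciart*, and −1.64 for *Wee1*. All 5 were lower in TKO than in WT left ventricle and, on the TMM scale, had a TKO over WT ratio above 1 in the infarct, border, and remote zones, although on total counts the infarct zone ratios of *Per1*, *Per2*, and *Per3* were 0.900, 0.978, and 0.826. They rest on the TKO left ventricle library, in which *Per2* had 6.33 CPM, *Ciart* 4.94 CPM, and *Wee1* 9.34 CPM. None of the 5 passed without the border zone, where no gene did.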

How the results depend on the processing

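Of 410 recomputed values of the 10 genes, 327 were unchanged, 30 turned direction, 24 gained a call, 11 lost one, and 18 moved. Unchanged meant the same direction and side of the threshold for values with a test. The 410 also include values of 1 genotype alone, which had no test. Those counted as unchanged within 1 SE of the main value and otherwise as moved. Of 120 recomputed TKO over WT ratios, 106 stayed within their counting interval. The other 14 were in the infarct and border zones, on total counts. Genes called for the genotype difference were 56 on total counts, 342 with DESeq2's Wald test, 8 with no region term, 73 without the TKO left ventricle, and 3 to 83 with 1 region left out, and no member was called in any of these. For the left ventricle departure, total counts gave 275 genes and 5 members, DESeq2's Wald test 280 and 6, and leaving out 1 zone 0 to 1434 and 0 to 8. Leaving out a zone leaves fewer degrees of freedom, and the cause of the spread in these counts was not tested. The infarct zone departure gave 288 genes with DESeq2's Wald test. For the zones against the left ventricle, members called were 6 on total counts, 4 with DESeq2's Wald test, and 0 with no filter, without the TKO left ventricle, or with any 1 zone left out, where genes called were 9 to 4298. For the infarct zone against border and remote zones, 5 members were called on total counts and 5 without both left ventricle libraries. The TKO left ventricle lay outside the other 7 libraries by more than their range for 4 members on total counts. The left ventricle arm difference of TKO minus WT ran from −2.74 to −1.22 with 1 gene left out.

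Directions turned in 30 values, 1 of which passed a test. For the genotype difference (log2) *Clock* was −0.027 on total counts and *Per2* 0.031 with no region term. Without the left ventricle pair, and likewise without the TKO left ventricle alone, *Npas2* was −0.023, *Per1* 0.18, *Per2* 0.32, *Per3* 0.12, *Cry1* 0.089, and *Tef* 0.24. With 1 region left out the ranges were −0.023 to 0.68 for *Npas2*, −0.38 to 0.18 for *Per1*, −0.46 to 0.32 for *Per2*, −0.39 to 0.12 for *Per3*, −0.18 to 0.089 for *Cry1*, −0.19 to 0.24 for *Tef*, and −0.24 to 0.090 for *Nr1d1*. For the infarct zone departure *Nr1d2* was −0.17 on total counts. For the zones against the left ventricle, total counts gave 0.23 for *Clock* and 0.21 for *Nr1d1*, the fits without the TKO left ventricle 0.041 for *Clock*, 0.42 for *Nr1d1*, and −0.16 for *Tef*, and those without 1 zone −0.20 to 0.23 for *Clock* and −0.31 to 0.10 for *Nr1d1*. For the infarct zone against border and remote zones, total counts gave 0.37 for *Npas2*, 0.39 for *Cry1*, 0.60 for *Nr1d2* (edgeR adjusted p = 0.0086), and 0.47 for *Tef*. On total counts the median of all genes in that comparison also rose, to 0.636. The labels give no replicate numbers, so no replicate block was fitted. WT and TKO were paired by region in the genotype test, and the fit with no region term is given above. The fits without the TKO left ventricle or both left ventricle libraries, those of the left ventricle departure without 1 zone, and the total-count values of the zone ratios and of the library's distance were chosen after seeing the data. *Npas2* is limited by its 47 to 69 counts in 7 libraries.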

Other observations

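Beyond the clock, the genes ranked highest by edgeR's quasi-likelihood test of the left ventricle departure were *Rnaset2b*, at 5.20 on the log2 scale, *Gm17131*, at 3.42, and *Per2*. *Depp1* and *Ddit4*, targets of FOXO factors and of glucocorticoids, were at −2.89 and −2.19. *Pck1*, an enzyme of gluconeogenesis, was at −6.38, and the adipocyte marker *Adipoq* was at −5.00. What these genes have in common was not tested. *Tfrc*, the transferrin receptor, was at 1.75. These genes were chosen after their values were seen.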
